A study of Mus musculus with 6 samples.

Results

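The interleukin-1 system was followed across mouse liver cell classes through 9 genes among the 31253 features of the deposited count matrices, named as a fixed list: the cytokines Il1a, Il1b, Il18 and Il1f9, the antagonist Il1rn, the receptors Il1r1, Il1r2 and Il1rap, and the inflammasome sensor Nlrp3. All 9 were found by symbol. Single-cell RNA was measured in 6 libraries: 2 from control livers, 2 from livers with pre-metastatic niches and 2 from livers with a macro-metastatic niche. CT26-GFP, a colon carcinoma line of the mouse with a green fluorescent protein, is the cell line in the labels of every library, the controls included. Under genotype the labels give ctrl for the controls and an orthotopic colorectal cancer model for the other two groups, and they state no strain, age or sex. Whole livers were digested with Collagenase II, cleared of erythrocytes and dead cells and captured with BD Rhapsody, where a barcode marks the cell and a unique molecular identifier (UMI) marks the molecule. The replicates carry numbers, but nothing says that they were separate animals. The p-values below therefore reflect only how these libraries vary, and that variation may be technical.

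Interleukin-1 alpha and interleukin-1 beta both act through the signalling receptor encoded by Il1r1, which needs the accessory chain encoded by Il1rap. The antagonist encoded by Il1rn occupies that receptor without signalling, and the receptor encoded by Il1r2 lacks a signalling domain and binds the cytokine as a decoy. Interleukin-1 beta and interleukin-18 are made as precursors that caspase-1 cuts once a sensor such as Nlrp3 has assembled an inflammasome, and Il1f9 encodes interleukin-36 gamma, a relative with its own receptor. Transcript levels therefore do not give the amount of active cytokine.

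The genes of the founding cytokines lie close together on chromosome 2 of the GRCm38 build, on the minus strand: Il1a at chr2:129299610-129309972 and Il1b at chr2:129364570-129371139. Their promoter windows, taken from RefSeq on GRCm38.p6, are printed because the transcripts of the pair changed together in Kupffer cells and in opposite directions in neutrophils. Each window runs from 250 bases before to 50 bases after the annotated start, 5′ to 3′ on the strand of the gene (Il1a at chr2:129309923-129310222, Il1b at chr2:129371090-129371389), and capitals mark the letters TATAAA.
Il1a: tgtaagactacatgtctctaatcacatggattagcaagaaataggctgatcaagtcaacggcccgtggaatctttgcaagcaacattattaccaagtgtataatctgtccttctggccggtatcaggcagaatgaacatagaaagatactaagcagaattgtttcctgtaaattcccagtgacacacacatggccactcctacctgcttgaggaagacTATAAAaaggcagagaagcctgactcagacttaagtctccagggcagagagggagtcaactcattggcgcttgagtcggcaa
Il1b: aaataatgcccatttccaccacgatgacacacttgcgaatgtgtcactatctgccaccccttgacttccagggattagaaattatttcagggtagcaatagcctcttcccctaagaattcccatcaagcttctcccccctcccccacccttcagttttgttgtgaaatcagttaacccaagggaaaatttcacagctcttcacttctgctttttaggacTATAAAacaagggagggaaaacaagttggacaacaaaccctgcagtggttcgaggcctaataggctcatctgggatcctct
The letters TATAAA start at position -32 from the start site in the Il1a window and at position -31 in the Il1b window. Searched on both strands, TATAAA occurred in 13.6% of all 32851 RefSeq windows of this length, and in windows of 4 of the 9 members. The AP-1 letters TGANTCA, found in 7.81% of all windows, occurred at position -12 of Il1a and not in the Il1b window. These matches are descriptions of the letters, with no statement about binding.

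Cells were assigned to a class by the number of that class's marker genes detected, and the UMIs of each class were summed per library and expressed as CPM, that is, scaled to a common total of UMIs per class and library. UMIs come from 1 end of each transcript, so levels were not scaled by gene length. Of 71908 barcodes, 65092 passed filters and 56501 entered a class. Total UMIs ranged from 41914149 to 90819751 per library, and the macro-metastatic libraries were the deepest. Neutrophils numbered 101 and 210 in control libraries, 1302 and 860 in pre-metastatic libraries and 3451 and 3486 in macro-metastatic libraries, and Kupffer cells, macrophages resident in liver sinusoids, 393 and 358, 1016 and 977, and 2205 and 2395 in that order of groups. Neutrophil and Kupffer cell names matched those from clustering in 99.42% and 91.03% of cells, against 78.45% for monocytes and macrophages. RNA released from broken cells also enters droplets, so B cells, which are not known as a main source of these transcripts, served as a measure of that background. The same number of stray UMIs makes a higher CPM in a shallower cell, and B cells had median depths of 1345 to 2275 UMIs. B cell levels set against deeper classes may thus overstate the background there. The summed neutrophil markers in B cells stood at 27.7 and 43.5 CPM in control, 180 and 87.9 CPM in pre-metastatic and 958 and 585 CPM in macro-metastatic libraries. The same markers stood at 148 and 156, 209 and 468, and 715 and 423 CPM in Kupffer cells, and at 182 and 179, 1792 and 375, and 3113 and 1920 CPM in monocytes and macrophages, in the same group order. All markers were detected in both classes in macro-metastatic libraries, and their part in the results was not tested. Of 64824 distinct barcode sequences, 2082 occurred in more than 1 library.

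Each member had its highest levels in a few cell classes. Il1b was highest in neutrophils, with a mean of 15634 ± 7689 CPM over 6 libraries (SD), followed by monocytes and macrophages at 2259 ± 636 CPM. An antisense gene, Il1bos, overlaps Il1b. It had 687 UMIs against 478452 for Il1b, and whether counting used the strand is not stated. Il1a had a different order, with 1176 ± 828 CPM in endothelial cells and 1158 ± 993 CPM in Kupffer cells. These SDs include the differences between stages, and the order of these classes changed with the stage. Kupffer cells were higher in control, at 369 and 444 against 342 and 334 CPM. Endothelial cells were higher in pre-metastatic libraries, at 782 and 1407 against 603 and 759 CPM, and macro-metastatic values overlapped. Neutrophils were also the highest class for Il1rn, Il1r2, Il1rap and Il1f9. Il1r1, the signalling receptor, was low in neutrophils, at 0 to 41.6 CPM, and high in endothelial cells, at 176 to 458 CPM, and in stellate cells and fibroblasts, where 4 libraries held 49.8 to 467 CPM. Il18 was highest in Kupffer cells, at 140 to 218 CPM. Nlrp3 was highest in basophils and mast cells, where the libraries with at least 20 cells held 3143 CPM in control replicate 2, 2775 CPM in pre-metastatic replicate 1 and 4717 and 6305 CPM in macro-metastatic libraries, and next in neutrophils, at 1839 to 3253 CPM. The summed neutrophil markers in basophils and mast cells were at 4372 CPM in that control library, 6545 CPM in that pre-metastatic library and 10173 and 10821 CPM in macro-metastatic libraries, against 39616 to 89035 CPM in neutrophils. These sums came from part of the list. Of its 12 markers, 10 had no UMI in that control library, 4 in that pre-metastatic library and 1 and 3 in macro-metastatic libraries. Their part in the Nlrp3 level was not tested.

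**Figure D1:**
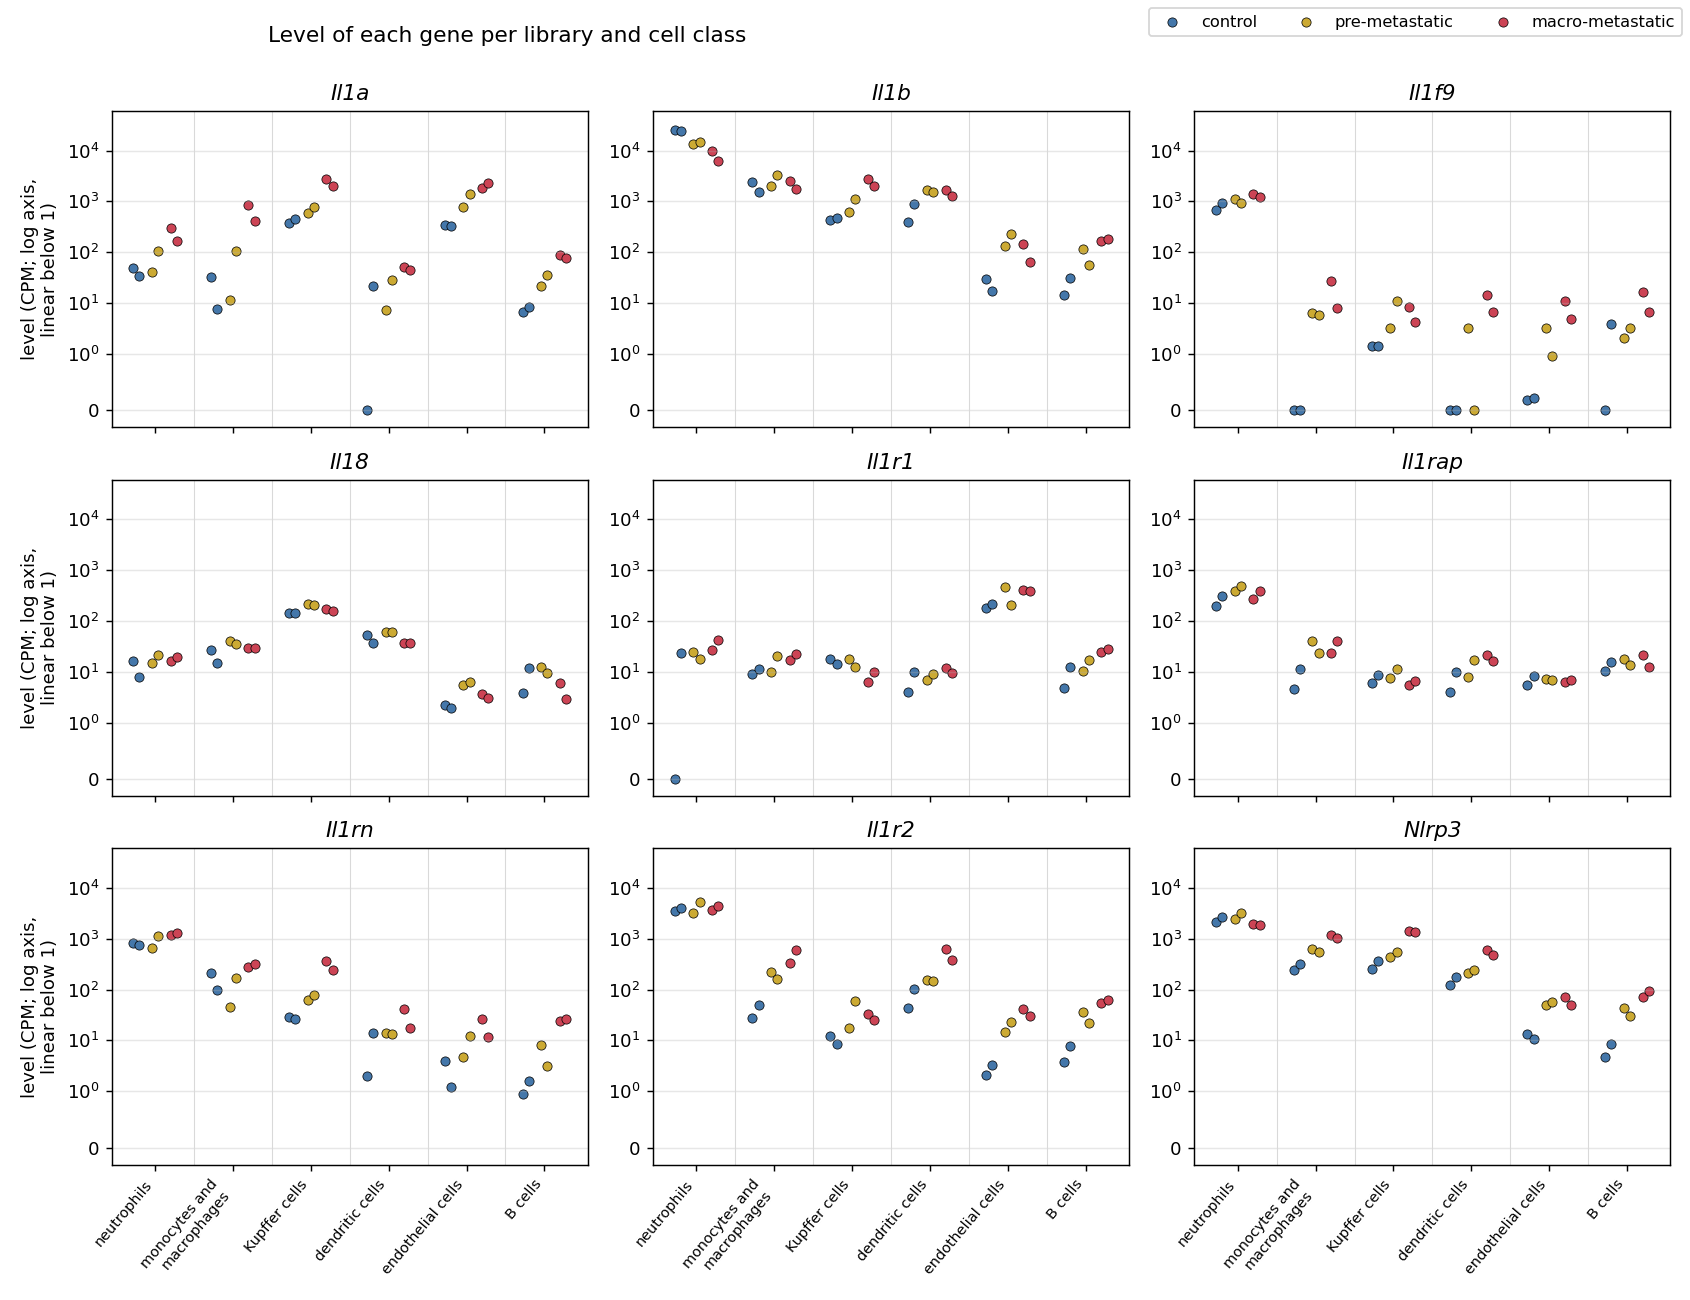
Levels of the 9 members in CPM (vertical axis, logarithmic above 1 CPM and linear below) in 6 cell classes, with 1 point per library coloured by group. Il1b spans 6301 to 25301 CPM in neutrophils, where its macro-metastatic points are the lowest, whereas Il1a, Il1b, Il1rn and Nlrp3 in Kupffer cells have their macro-metastatic points above all others.

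In neutrophils, the macro-metastatic libraries held less Il1b per UMI and more Il1a than control libraries. Il1b was at 25301 and 24260 CPM in control, 13616 and 14660 CPM in pre-metastatic and 9668 and 6301 CPM in macro-metastatic libraries. The groups did not overlap and followed the order of the stages. The log2 fold change between macro-metastatic and control neutrophils was -1.49 ± 0.256 (SE, adjusted p = 0.0101, edgeR's quasi-likelihood test with Benjamini-Hochberg adjustment). Il1a was at 48.1 and 34.8 CPM in control, 41.1 and 105 CPM in pre-metastatic and 304 and 165 CPM in macro-metastatic libraries. Both macro-metastatic values lay above the others, while pre-metastatic and control values overlapped. Its log2 fold change was 2.70 ± 0.592 against control (adjusted p = 0.0261, edgeR) and 1.75 ± 0.43 against pre-metastatic libraries (adjusted p = 0.0380, edgeR). The Il1a level in B cells reached 28.9% and 45.9% of the neutrophil level in the macro-metastatic libraries, and for Il1b 1.68% and 2.95%.

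These 2 calls among 9 members compare with 7.97% of all 7870 genes tested in macro-metastatic against control neutrophils. Without control replicate 1 the adjusted p was 0.0834 for Il1b and 0.14 for Il1a, and without control replicate 2 it was 0.121 for Il1b and 0.226 for Il1a (edgeR), with log2 fold changes of -1.51 and 2.84, and of -1.36 and 2.59. Where neutrophils were taken from clusters named by their markers in place of the marker count, the log2 fold change of Il1b was -0.53 (adjusted p = 0.253, edgeR), and 5 members were called higher. Without pre-metastatic replicate 2, 4 members were called. In macro-metastatic against pre-metastatic neutrophils Il1a was the only member called, against 8.21% of genes. That call was lost without either control replicate, without pre-metastatic replicate 1 (log2 fold change 1.17) and without macro-metastatic replicate 1 (1.28).

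The antagonist and the decoy receptor did not pass the test in neutrophils. Il1rn, the antagonist, was at 825 and 765 CPM in control, 668 and 1104 CPM in pre-metastatic and 1159 and 1301 CPM in macro-metastatic libraries. Its macro-metastatic values exceeded all others, with a log2 fold change of 0.77 ± 0.258 against control (adjusted p = 0.103, edgeR). Il1r2, the decoy receptor, was at 3429 and 3963 CPM in control, 3259 and 5178 CPM in pre-metastatic and 3684 and 4385 CPM in macro-metastatic libraries. Its groups overlapped, and the log2 fold change was 0.26 ± 0.259 (adjusted p = 0.577, edgeR). The cytokine Il1f9 was at 681 and 916 CPM in control, 1122 and 933 CPM in pre-metastatic and 1419 and 1226 CPM in macro-metastatic libraries. Every stage lay above control, with a macro-metastatic log2 fold change of 0.85 ± 0.229 (adjusted p = 0.0527, edgeR). The sensor Nlrp3 was at 2115 and 2702 CPM in control, 2393 and 3253 CPM in pre-metastatic and 1924 and 1839 CPM in macro-metastatic libraries, with a log2 fold change of -0.23 ± 0.234 (adjusted p = 0.585, edgeR). The accessory chain Il1rap was at 192 and 313 CPM in control, 392 and 491 CPM in pre-metastatic and 264 and 394 CPM in macro-metastatic libraries. Both pre-metastatic values and 1 macro-metastatic value lay above all control values, and no change passed the test. The median log2 fold change was 0.77 over the 9 members and 0.15 over all genes, so the scale itself sat slightly above 0 in this class.

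In pre-metastatic against control neutrophils no member was called by edgeR, and 0.0% of genes were. At an unadjusted p under 0.05 there were 2 members, Il1b with a log2 fold change of -0.69 and Il1rap with 0.86, and DESeq2 called 1 member.

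**Figure D2:**
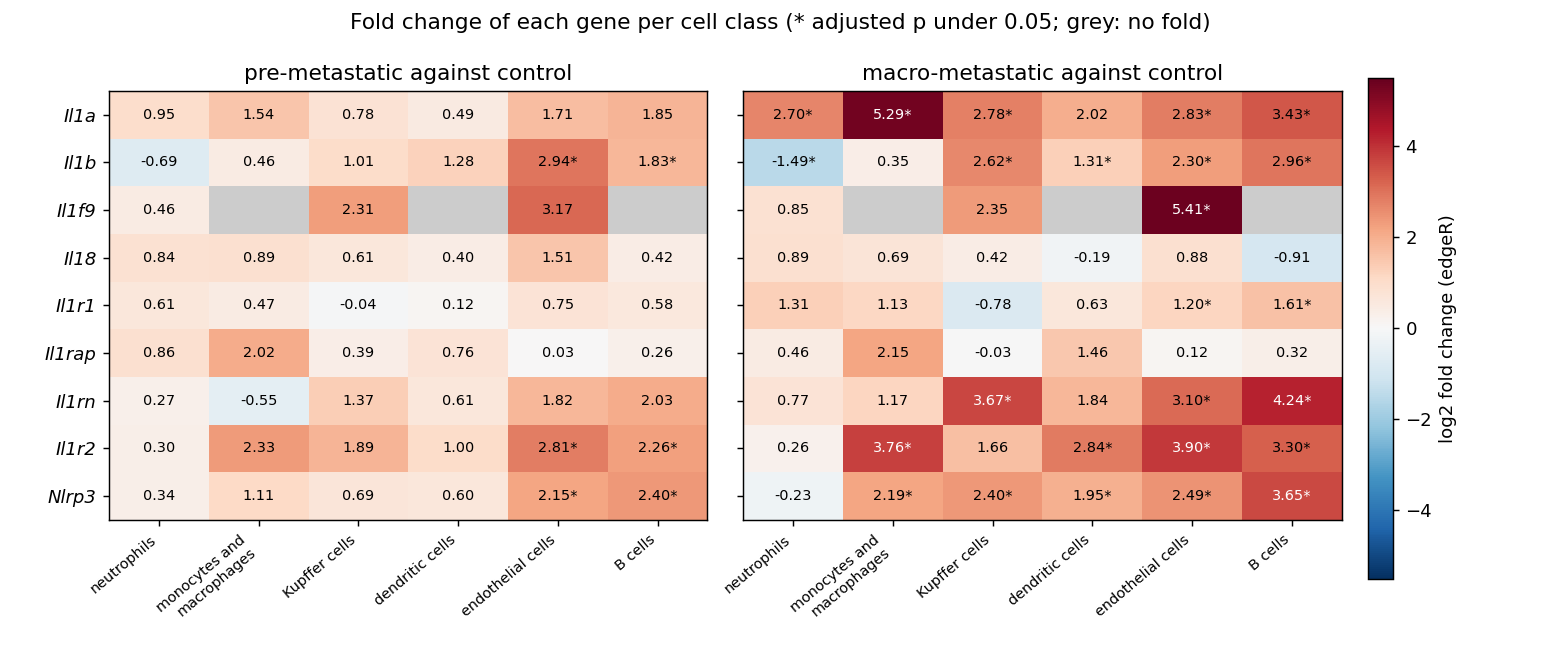
Log2 fold changes of the 9 members (vertical axis) in 6 cell classes (horizontal axis), for pre-metastatic and for macro-metastatic libraries against control, with an asterisk at adjusted p under 0.05 in edgeR and grey where no fold could be given. Il1b is negative in neutrophils (-1.49) and positive in Kupffer cells (2.62) in macro-metastatic libraries, and 6 members carry an asterisk in the B cells that measure background.

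In Kupffer cells, Il1a, Il1b, Il1rn and Nlrp3 rose in macro-metastatic livers. Il1b was at 424 and 467 CPM in control, 624 and 1131 CPM in pre-metastatic and 2737 and 1964 CPM in macro-metastatic libraries. Il1a was at 369 and 444 CPM in control, 603 and 759 CPM in pre-metastatic and 2784 and 1989 CPM in macro-metastatic libraries. Neither cytokine's groups overlapped. The log2 fold changes between macro-metastatic and control Kupffer cells were 2.62 ± 0.294 for Il1b (adjusted p = 0.000577) and 2.78 ± 0.22 for Il1a (adjusted p = 0.000148) in edgeR. Il1rn, at 29.0 and 26.4 CPM in control, was at 60.9 and 79.7 CPM in pre-metastatic and 365 and 240 CPM in macro-metastatic libraries, which gave the highest fold change of the called members, 3.67 ± 0.269 on the log2 scale (adjusted p = 0.000113, edgeR). Nlrp3 was at 258 and 360 CPM in control, 428 and 540 CPM in pre-metastatic and 1420 and 1368 CPM in macro-metastatic libraries. Its log2 fold change was 2.40 ± 0.189 (adjusted p = 0.000148, edgeR).

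These 4 calls compare with 26.8% of the 12506 genes tested in Kupffer cells, so a call in this class is common. The median log2 fold change was 2.35 over the members and 0.0018 over all genes. The 4 calls stayed past the threshold without any 1 of the 6 libraries, and without macro-metastatic replicate 2 there were 8 calls. All 4 members were also called higher against pre-metastatic livers, where 25.4% of genes were called. In pre-metastatic against control Kupffer cells edgeR called 0 members and 0.136% of genes, against 7 members at an unadjusted p under 0.05 and 5 by DESeq2. Without macro-metastatic replicate 1 there was 1 such call, and without macro-metastatic replicate 2 there were 2. In macro-metastatic libraries the level in B cells was 3.16% and 3.80% of the Kupffer cell level for Il1a, 5.93% and 9.46% for Il1b, 6.65% and 10.99% for Il1rn and 5.13% and 6.76% for Nlrp3. The same members rose in B cells, where 6 of 8 members tested were called against 17.4% of genes. Relative to B cells the direction of all 4 Kupffer cell changes turned, with Il1b at -0.44 and Nlrp3 at -1.34.

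The signalling receptor was low in Kupffer cells. Il1r1 was at 17.7 and 14.5 CPM in control, 18.2 and 12.4 CPM in pre-metastatic and 6.40 and 9.91 CPM in macro-metastatic libraries, with a log2 fold change of -0.78 (adjusted p = 0.0803, edgeR). Il18 was at 143 and 140 CPM in control, 218 and 204 CPM in pre-metastatic and 172 and 154 CPM in macro-metastatic libraries. Its pre-metastatic values were the highest, and neither change passed the test (adjusted p = 0.209 for pre-metastatic and 0.0561 for macro-metastatic against control, edgeR).

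Shares of cells with at least 1 UMI were compared after each cell was thinned to 1000 UMIs. Il1b was detected in 27.6% and 27.8% of Kupffer cells in control, 39.6% and 48.7% in pre-metastatic libraries and 78.9% and 67.2% in macro-metastatic libraries. Without thinning the shares were 69.0% and 62.3%, 83.2% and 79.7%, and 95.3% and 90.2%. In B cells the thinned shares were 0.949% and 0.872% in control libraries, 4.33% and 4.69% in pre-metastatic libraries and 16.1% and 8.37% in macro-metastatic libraries, at median depths of 1345 to 2275 UMIs against 7759 to 14982 in Kupffer cells. Among Kupffer cells with Il1b, Il1a was detected in 36.5% and 37.2% of control, 41.8% and 52.8% of pre-metastatic and 82.2% and 76.5% of macro-metastatic cells. Il1a also rose in Kupffer cells as a whole. These shares therefore do not show whether the genes became more linked within cells, which was not tested. In neutrophils Il1b was detected in 97.1% and 97.4% of control, 95.6% and 98.2% of pre-metastatic and 93.8% and 91.3% of macro-metastatic cells after thinning. The macro-metastatic shares were the lowest of the 6. Thinning left out 32 and 57 control, 279 and 363 pre-metastatic and 90 and 137 macro-metastatic neutrophils that were shallower than 1000 UMIs.

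In monocytes and macrophages the decoy receptor rose in macro-metastatic livers, as did Nlrp3 and Il1a, and Il1b did not pass the test. Il1b was at 2400 and 1523 CPM in control, 2003 and 3291 CPM in pre-metastatic and 2562 and 1773 CPM in macro-metastatic libraries. Its groups overlapped, with a log2 fold change of 0.35 ± 0.306 (adjusted p = 0.539, edgeR). Il1r2 was at 27.3 and 48.5 CPM in control, 216 and 160 CPM in pre-metastatic and 334 and 587 CPM in macro-metastatic libraries. The groups did not overlap, and the log2 fold change against control was 3.76 ± 0.384 (adjusted p = 0.000883, edgeR). Nlrp3 had a log2 fold change of 2.19 ± 0.200 (adjusted p = 0.000487, edgeR), with 1180 and 1038 CPM in macro-metastatic against 246 and 314 CPM in control libraries.

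Il1a in monocytes and macrophages was at 843 and 413 CPM in macro-metastatic against 31.9 and 7.47 CPM in control libraries. The control values came from 51 and 71 cells. The log2 fold change was 5.29 ± 1.12 (adjusted p = 0.0201, edgeR), but the adjusted p was 0.128 without control replicate 1, 0.186 without control replicate 2 and 0.103 with clusters named by markers. Il1f9 had no UMI in control monocytes and macrophages, and was at 27.6 and 7.82 CPM in macro-metastatic libraries, at least 3.71-fold higher when counted against a floor of 3 UMIs over the control group. In a check chosen after seeing the data, the bound was 1.27-fold without macro-metastatic replicate 1, 2.04-fold without control replicate 1 and 1.67-fold without control replicate 2, and the B cell level was 60.5% and 84.5% of that in macro-metastatic monocytes and macrophages. Il1r2, Nlrp3 and Il1a were the 3 members called, beside 8.39% of genes. The median log2 fold change was 2.15 over the 9 members, or 1.89 with Il1f9 set at its lower bound, and 0.091 over all genes. Against pre-metastatic libraries Il1r2, Il1a and Nlrp3 were again called, with 13.8% of genes. In pre-metastatic against control libraries edgeR called 0 members and 0.0% of genes, against 3 members at an unadjusted p under 0.05 and 2 by DESeq2. Without pre-metastatic replicate 2 there were 6 calls against control in macro-metastatic and 3 in pre-metastatic libraries. The call of Il1r2 against pre-metastatic libraries was lost without macro-metastatic replicate 2 (log2 fold change 1.01), and those of Il1a and Nlrp3 without macro-metastatic replicate 1 (3.03 and 0.92). Neutrophil markers, summed above, were higher in this class in macro-metastatic than in control libraries, and Il1r2 was highest in neutrophils. Their part in the Il1r2 change was not tested. The B cell level of Il1r2 was 15.9% and 10.4% of the level in monocytes and macrophages in macro-metastatic libraries.

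Dendritic cells had higher Il1b, Il1r2 and Nlrp3 in macro-metastatic livers. Il1r2 was at 43.3 and 101 CPM in control, 153 and 148 CPM in pre-metastatic and 615 and 382 CPM in macro-metastatic libraries. Il1b was at 395 and 894 CPM in control, 1651 and 1525 CPM in pre-metastatic and 1696 and 1289 CPM in macro-metastatic libraries, so that both later stages lay above control. Nlrp3 was at 120 and 172 CPM in control, 207 and 247 CPM in pre-metastatic and 592 and 475 CPM in macro-metastatic libraries, with no overlap between groups. The summed neutrophil markers in dendritic cells stood at 5.90 and 41.4 CPM in control, 145 and 104 CPM in pre-metastatic and 717 and 482 CPM in macro-metastatic libraries, where no marker was at 0, and their part was not tested. The B cell level was 9.58% and 14.4% of the dendritic cell level of Il1b in macro-metastatic libraries. The log2 fold changes against control were 2.84 ± 0.335 for Il1r2 (adjusted p = 0.00151), 1.31 ± 0.293 for Il1b (adjusted p = 0.0231) and 1.95 ± 0.213 for Nlrp3 (adjusted p = 0.00114) in edgeR. These 3 calls compare with 11.5% of genes, and the median log2 fold change was 1.84 over the members and -0.029 over all genes. For Il1b the adjusted p was 0.0635 without control replicate 1 and 0.112 without macro-metastatic replicate 1. Il1r2 and Nlrp3 were also called against pre-metastatic libraries, with 16.1% of genes, a pair of calls lost without pre-metastatic replicate 1. No member was called in pre-metastatic against control dendritic cells, nor was any gene (0.0%), by edgeR, while 3 members had an unadjusted p under 0.05 and DESeq2 called 1. Without control replicate 2 edgeR called 1.

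Endothelial cells carried the signalling receptor and much of Il1a. Il1a was at 342 and 334 CPM in control, 782 and 1407 CPM in pre-metastatic and 1852 and 2341 CPM in macro-metastatic libraries. The groups did not overlap, and the macro-metastatic against control log2 fold change was 2.83 ± 0.318 (adjusted p = 0.00131, edgeR). Il1r1 was at 176 and 213 CPM in control, 458 and 205 CPM in pre-metastatic and 397 and 386 CPM in macro-metastatic libraries. Its pre-metastatic libraries disagreed with each other, and the log2 fold change of macro-metastatic against control was 1.20 ± 0.308 (adjusted p = 0.0272, edgeR), with an adjusted p of 0.16 without control replicate 1 and 0.115 without control replicate 2. B cells held 3.23% to 4.75% of the endothelial Il1a level and 6.11% to 7.22% of the Il1r1 level in macro-metastatic libraries.

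Of the 9 members 7 were called, all of them higher, in macro-metastatic against control endothelial cells, where 24.5% of 12923 genes were called. The median log2 fold change was 2.49 over the members and -0.013 over all genes. For Il1b, Il1rn, Il1r2, Nlrp3 and Il1f9 the B cell level was as large as or larger than the endothelial level in at least 1 macro-metastatic library. Median depths there were 2243 and 2275 UMIs in B cells against 6537.5 and 5873 UMIs in endothelial cells. Levels in CPM therefore do not show whether these endothelial values are background, which was not tested. The B cell level was 112% and 288% of the endothelial level for Il1b, 91.0% and 230% for Il1rn, 129% and 199% for Il1r2, 103% and 185% for Nlrp3 and 153% and 133% for Il1f9. Il1f9 was at 10.94 and 4.95 CPM in macro-metastatic endothelial cells and rested on 2 and 3 UMIs in control libraries. The summed neutrophil markers in endothelial cells stood at 887 and 1074 CPM in macro-metastatic against 114 and 87.5 CPM in control libraries, and their part was not tested. In pre-metastatic against control endothelial cells Il1b, Il1r2 and Nlrp3 were called, with 0.96% of genes, and none was called without control replicate 1, without control replicate 2 or without pre-metastatic replicate 2. Without either macro-metastatic replicate there were 5 calls. Il1a had an adjusted p of 0.0517 in that comparison (edgeR). Without control replicate 2 the macro-metastatic against control calls of Il1rn (log2 fold change 2.42, adjusted p = 0.0983) and Il1b (1.94, adjusted p = 0.0877) were lost in edgeR, and 4 calls were left. Against pre-metastatic libraries Il1a, Il1r2 and Il1f9 were called, with 13.6% of genes. None of them was called without control replicate 1 or without control replicate 2. Il1a was also lost without pre-metastatic replicate 1 (log2 fold change 0.75) and without macro-metastatic replicate 2 (0.91). Il1r2 and Il1f9 were each lost without pre-metastatic replicate 1 (0.83 and 3.17), without pre-metastatic replicate 2 (1.498 and 1.495) and without macro-metastatic replicate 1 (0.91 and 1.63).

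The balance between Il1b and its antagonists was read as a ratio of UMIs in the same cells, so that library depth cancels. In neutrophils there were 30.7 and 31.7 Il1b UMIs per Il1rn UMI in control, 20.4 and 13.3 in pre-metastatic libraries and 8.34 and 4.84 in macro-metastatic libraries. The groups did not overlap, and the mean log2 ratio was 2.67 ± 0.554 in macro-metastatic against 4.96 ± 0.0338 in control libraries (SD, n = 2 each), a difference of -2.29. Per Il1r2 UMI there were 7.38 and 6.12 Il1b UMIs in control, 4.18 and 2.83 in pre-metastatic libraries and 2.62 and 1.44 in macro-metastatic neutrophils, again with no overlap, and a log2 difference of -1.79 between macro-metastatic and control libraries. With 2 libraries a group, an exact two-sided permutation test cannot go below p = 0.3333, so none was run on these ratios. The 2 neutrophil differences were -2.31 and -1.80 with clusters named by markers. Il1a per Il1rn UMI moved the other way in neutrophils, from 0.0583 and 0.0455 in control to 0.262 and 0.127 in macro-metastatic libraries. The log2 difference was 1.825 with no overlap, and control Il1a rested on 6 and 9 UMIs.

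Among monocytes and macrophages the Il1b to Il1r2 ratio was 87.8 and 31.4 in control libraries, 9.26 and 20.6 in pre-metastatic libraries and 7.67 and 3.02 in macro-metastatic libraries. The control values rested on 6 and 13 Il1r2 UMIs. Per Il1rn UMI, the same class did not show a fall at each stage. Pre-metastatic values of 44.3 and 19.4 exceeded the control values, which were 11.2 and 15.7. Macro-metastatic values were 9.05 and 5.59, below every control value. Against control, the log2 difference was 1.14 for pre-metastatic libraries and -0.90 for macro-metastatic libraries, and no groups overlapped. In Kupffer cells the Il1b to Il1rn ratio was 14.6 and 17.7 in control libraries, 10.2 and 14.2 in pre-metastatic libraries and 7.49 and 8.17 in macro-metastatic libraries, a macro-metastatic minus control difference of -1.04 on the log2 scale. There Il1b and Il1rn both rose, and the macro-metastatic ratios lay below every control value. The Il1b to Il1r2 ratio in Kupffer cells moved the other way, with 35.1 and 53.9 in control libraries, 35.9 and 19.0 in pre-metastatic libraries and 84.6 and 79.2 in macro-metastatic libraries, a macro-metastatic minus control difference of 0.91 on the log2 scale. Its macro-metastatic values lay above all others. In dendritic cells Il1b per Il1r2 UMI was 9.14 and 8.88 in control libraries, 10.8 and 10.3 in pre-metastatic libraries and 2.76 and 3.38 in macro-metastatic libraries. The pre-metastatic values lay above control and the macro-metastatic values below it. Per Il1rn UMI, dendritic cell Il1b overlapped between macro-metastatic and control libraries, where control held 1 and 10 Il1rn UMIs. Il1a per Il1rn UMI differed by 4.2 on the log2 scale in macro-metastatic against control monocytes and macrophages, with 7 and 2 control Il1a UMIs. That ratio differed by -0.88 in Kupffer cells and overlapped in endothelial and dendritic cells.

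**Figure D3:**
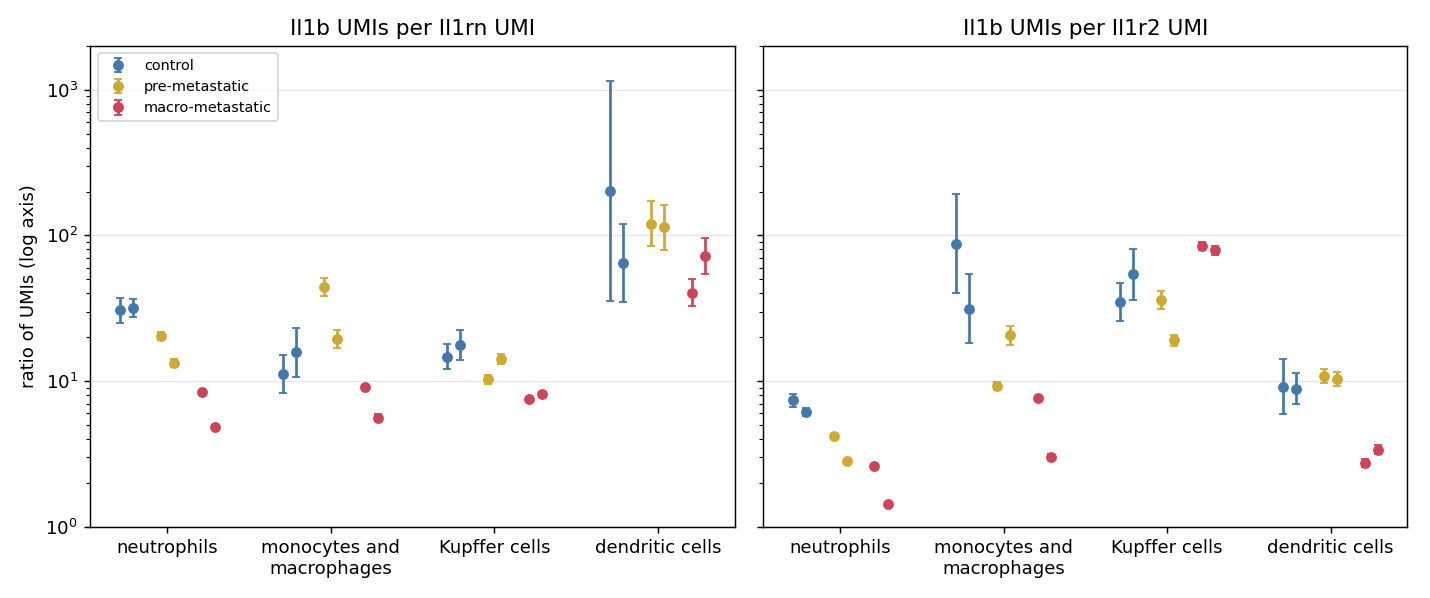
Ratio of Il1b UMIs to Il1rn UMIs and to Il1r2 UMIs (vertical axis, logarithmic) in 4 cell classes, with 1 point per library and Wilson 95% intervals that cover counting error only. In neutrophils the Il1b to Il1rn ratio is 8.34 and 4.84 in macro-metastatic and 30.7 and 31.7 in control libraries.

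The share of a class in a transcript's UMIs combines its cell number and its level. Kupffer cells held 19.2% and 15.3% of all Il1a UMIs in control, 42.8% and 19.6% in pre-metastatic libraries and 59.0% and 53.4% in macro-metastatic libraries. Endothelial cells held 53.4% and 59.1% of them in control, 26.9% and 49.3% in pre-metastatic libraries and 18.9% and 36.7% in macro-metastatic libraries. For Il1b, neutrophils held 39.1% and 57.4% in control libraries, 48.9% and 30.0% in pre-metastatic libraries and 37.3% and 34.3% in macro-metastatic libraries, and Kupffer cells held 36.4% and 47.7% in macro-metastatic libraries. The 2 sources of Il1b overlapped in size there. Neutrophils held most Il1r2 UMIs in all 6 libraries, between 64.1% and 80.3%. Summed over all cells, Il1b stood at 248 and 344 CPM in control, 1197 and 1047 CPM in pre-metastatic and 2798 and 1530 CPM in macro-metastatic libraries, although the level per UMI in neutrophils fell. By themselves such whole-library sums do not separate the number of cells of a type from the level per cell. Captured neutrophils numbered 101 and 210 in control and 3451 and 3486 in macro-metastatic libraries. Barcodes with markers of several classes held 6.30% to 29.3% of Il1a UMIs.

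**Figure D4:**
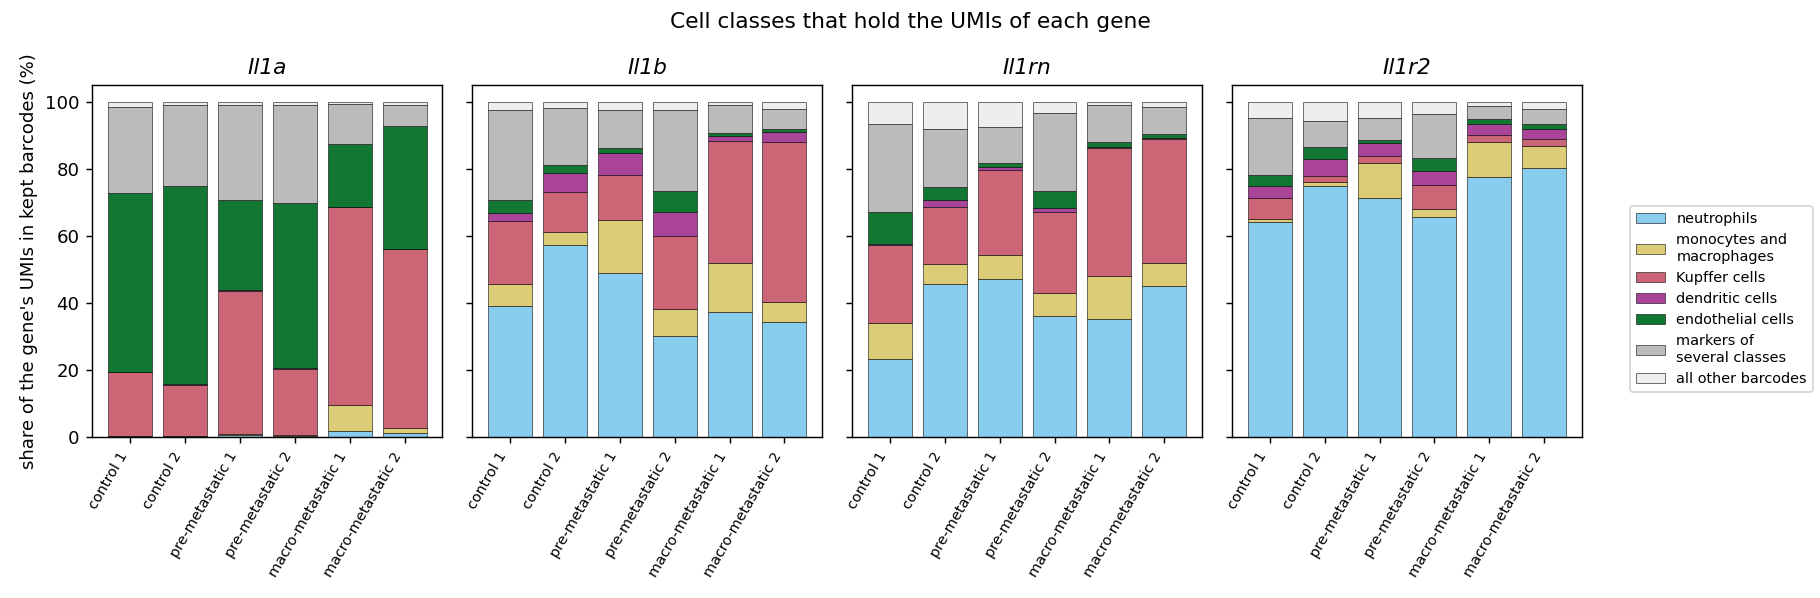
Percent of all UMIs of Il1a, Il1b, Il1rn and Il1r2 (vertical axis) contributed by each cell class in each of the 6 libraries, stacked to the total. Kupffer cells reach 59.0% and 53.4% of Il1a UMIs in macro-metastatic libraries, and neutrophils hold at least 64.1% of Il1r2 UMIs in every library.

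Genes of the pathway outside the 9 members were read as lists. Of 16 listed target genes of the signal, 10 of 14 tested were higher and 0 lower in macro-metastatic against control Kupffer cells, 11 of 13 higher in endothelial cells, and 7 of 12 higher in both neutrophils and monocytes and macrophages, beside 26.8%, 24.5%, 7.97% and 8.39% of all genes called in these classes. Dendritic cells had 4 of 12 higher, beside 11.5% of genes. The chemokines Cxcl1 and Cxcl2, which draw neutrophils, had log2 fold changes of 2.84 and 2.74 in Kupffer cells and of 4.45 and 5.504 in endothelial cells. Ptgs2, a prostaglandin synthase, was the exception, with a log2 fold change of -3.10 in neutrophils (adjusted p = 0.000242, edgeR). In B cells 11 of 12 were higher, Cxcl2 by 5.64 on the log2 scale, so the list moved in the background class as well, where 17.4% of genes were called. Median log2 fold changes of the list were 1.92 in Kupffer cells and 3.66 in B cells, beside 0.0018 and -0.0043 over all genes.

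Of 17 listed genes of the inflammasome and of cytokine processing, 6 of 15 tested were higher and 1 lower in Kupffer cells, 2 of 16 higher and 1 lower in neutrophils, and 7 of 17 higher and 1 lower in monocytes and macrophages. In endothelial cells 4 of 15 were higher and 2 lower, and in dendritic cells 1 of 14 higher and 1 lower. The count in monocytes and macrophages includes the proteases Prtn3 and Ctsg, which were among the leading genes of a neutrophil cluster. Prtn3 rose from 0 and 0 CPM in control to 98.6 and 89.6 CPM in macro-metastatic libraries. Ctsg rose from 4.6 and 3.7 CPM to 51.7 and 52.6 CPM. The part of neutrophil RNA in that count was not tested. The shares of all genes called were 26.8% in Kupffer cells, 7.97% in neutrophils, 8.39% in monocytes and macrophages, 24.5% in endothelial cells and 11.5% in dendritic cells. The list's median log2 fold change was 0.29 in Kupffer cells, 1.19 in neutrophils and 0.29 in monocytes and macrophages. Casp4, which encodes the mouse protease caspase-11, had log2 fold changes of 1.59 in neutrophils and 1.58 in Kupffer cells, and Mefv, which encodes the sensor pyrin, 2.57 and 3.601. Txnip, a thioredoxin-binding protein, was lower in all 5 classes and in B cells, with a log2 fold change of -2.14 in neutrophils and -1.49 in B cells. Of 13 listed signalling genes, 3 of 13 tested were higher in Kupffer cells (median log2 fold change 0.43) and 2 of 12 in neutrophils (0.23), beside 26.8% and 7.97% of all genes, so the share in Kupffer cells is near the background. Among them Rela, a subunit of NF-kB, was higher in all 5 classes and in B cells, with a log2 fold change of 3.18 in Kupffer cells and 2.47 in B cells. Il18bp, which encodes a soluble inhibitor of interleukin-18, was higher in neutrophils (log2 fold change 1.86, adjusted p = 0.0447, edgeR) and in B cells (1.73, adjusted p = 0.0419, edgeR). Of the other ligands 1 of 1 tested, Il33, was higher in endothelial cells (2.79) and lower in dendritic cells (-1.97). These classes had 24.5% and 11.5% of all genes called. Endothelial Il33 was at 11.2 and 10.1 CPM in control, 46.1 and 29.8 CPM in pre-metastatic and 107 and 24.8 CPM in macro-metastatic libraries. Of the other receptors, 2 of 4 tested were higher and 1 lower in dendritic cells. Sigirr, a regulator of the family, was higher (2.65) and Il18r1 lower (-3.81). Il18rap was also higher, with no UMI in control and 11.8 and 9.28 CPM in macro-metastatic libraries.

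Across 73 pairs of class and library with at least 20 cells, 9354 genes were compared with each member by Pearson correlation of log2(CPM + 1). Pairs of the same library share depth and background, so these values are descriptions. Il1b was most like Arg2 (0.916), with Nlrp3 second (0.893). Il1rn and Il1r2 were both most like Trem1, a receptor of myeloid cells (0.894 and 0.913), and Il1f9 most like Cstdc4 (0.948) and Camp, an antimicrobial peptide of neutrophil granules (0.941). Il1a was most like Hbegf (0.856). Il1r1 was most like Wwtr1 (0.844) and Il18 most like Creg1 (0.717).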

How the data were processed

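The deposited matrices hold raw UMI counts for each barcode. CASAVA 1.8, UMI-tools and the build mm10 are named, per the submitters' processing notes; for the aligner, and likewise the annotation, the tool is not given in the sources used here. Kept barcodes had 300 or more genes and a mitochondrial share below 25%, and doublets (simulated pairs, expected rate 0.06, score above 0.25) were removed. A cell joined the class with the highest share of its markers detected, if at least 3 were detected and that share was at least 1.5 times the runner-up's. A marker counted at 10% or more of its 98th percentile over cells, and 8.27% of kept cells had markers of several classes and 4.93% too few. Sums per class and library went into 1 fit per class over all 6 libraries (R 4.3.3, edgeR 4.0.16, quasi-likelihood test) with TMM scaling and filterByExpr. Benjamini-Hochberg adjustment ran over all genes tested, and calls are under 0.05. Levels are CPM of unscaled sums. Where a control group held no UMI, the fold is a lower bound against 3 counts. Wilson 95% intervals and floors cover counting error only. Alternatives were DESeq2 1.42.0 and RLE size factors, no low-count filter, a replicate block, GC and length correction, only the 2 groups compared, a stricter gate (4 markers), doublets kept, clusters named by markers (Python 3.11.15 with leidenalg 0.10.2, scanpy 1.11.5 and igraph 0.11.9), values relative to B cells, and each library left out. The tests were checked on simulated data. Members, gene lists and markers were chosen with earlier results of these data known. The 9 members are named throughout. From each pathway list up to 4 called genes with the smallest adjusted p in a class could be named, and the 5 most correlated genes per member.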

Additional observations from a re-analysis of the deposited data

Results flagged for a closer look

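The changes of several members between stages differed in size between cell classes. Each class was set against neutrophils in 1 edgeR quasi-likelihood fit over both classes, with the library as a block and Benjamini-Hochberg adjustment over all genes. This test was chosen after seeing the data. The values are differences of log2 fold changes, class minus neutrophils, and positive values mean a larger rise in that class. Only differences with an adjusted p under 0.05 are listed. Others did not pass, such as Il1b in macro-metastatic against control monocytes and macrophages (1.44, adjusted p = 0.0785, edgeR). The share of all genes past the threshold is not given, so the list does not set the members apart from other genes.

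In macro-metastatic against control livers, the difference for Il1b was 3.99 in Kupffer cells (adjusted p = 1.52e-07), where Il1b rose while it fell in neutrophils. It was 2.44 in dendritic cells (adjusted p = 0.00438, edgeR) and 3.16 in endothelial cells (adjusted p = 1.6e-09, edgeR). The SE was 0.436 in endothelial cells and 0.294 in Kupffer cells. Even so, the smaller difference with the larger SE had the smaller unadjusted p, 3.47e-12 against 1.87e-11 (edgeR). The p-values in this part therefore cannot be compared between classes, and they rest on sums from the same 6 libraries. Il1rn differed by 2.73 in Kupffer cells (adjusted p = 2.09e-05, edgeR) and 1.73 in endothelial cells (adjusted p = 0.00242, edgeR). The decoy receptor Il1r2 differed by 3.04 in monocytes and macrophages (adjusted p = 0.00553, edgeR), 2.16 in dendritic cells (adjusted p = 0.0128, edgeR) and 3.05 in endothelial cells (adjusted p = 2.15e-09, edgeR). Nlrp3 differed by 1.96 in monocytes and macrophages (adjusted p = 0.00577, edgeR), 2.48 in Kupffer cells (adjusted p = 5.82e-06, edgeR), 1.70 in dendritic cells (adjusted p = 0.0106, edgeR) and 2.08 in endothelial cells (adjusted p = 1.48e-05, edgeR). Il1f9 differed by 3.86 in endothelial cells (adjusted p = 7.34e-08, edgeR), where its macro-metastatic levels lay below those of B cells, which were 153% and 133% of them, and the control libraries held 2 and 3 UMIs.

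In pre-metastatic against control livers, Il1b differed by 1.62 in Kupffer cells (adjusted p = 0.041, edgeR) and by 3.16 in endothelial cells (adjusted p = 1.58e-08, edgeR), and Il1r2 by 2.07 in endothelial cells (adjusted p = 0.00143, edgeR). In endothelial cells the macro-metastatic levels of Il1b, Il1rn, Il1r2, Nlrp3 and Il1f9 were near or below those of the shallower B cells in CPM. The part of background RNA in these differences was not tested.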

How the results depend on the processing

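The 8 Il1b ratio results in neutrophils and in monocytes and macrophages kept their direction under all alternatives run. They stayed within the spread between replicates with the stricter gate, clusters named by markers and doublets kept. The same held with the B cell level subtracted and with GC and length correction. Leaving out 1 library was no check of the ratios, because the same libraries set that spread and no groups overlapped. For the 35 single-member calls, 502 alternative values stayed called in the same direction, 75 kept the direction and missed the threshold, and 18 changed direction. All 18 came from setting a class against B cells of the same library. There, macro-metastatic against control log2 fold changes were -0.66 for Il1a in neutrophils and -1.49 for Nlrp3 in monocytes and macrophages. In Kupffer cells they were -0.80 for Il1rn, -0.77 for Il1a, -0.44 for Il1b and -1.34 for Nlrp3. In endothelial cells they were -0.32 for Il1r1, -1.24 for Il1rn, -0.49 for Il1a, -0.61 for Il1b and -1.07 for Nlrp3. In dendritic cells they were -0.48 for Il1r2, -1.64 for Il1b and -1.67 for Nlrp3. Against pre-metastatic livers, Nlrp3 in monocytes and macrophages was at -0.26, Il1rn in Kupffer cells at -0.12 and Il1a in endothelial cells at -0.36, and Nlrp3 in pre-metastatic against control endothelial cells was at -0.20. These values are ratios of ratios. The cause of the turned directions was not tested.

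Counts of members called moved as follows. The number of all genes called can change with the setting as well, and its share is not given beside these counts. Counts of members under alternative settings, here, above and below, are therefore no result about the members in particular. Set against B cells, macro-metastatic against control counts were 4 in neutrophils, 2 in Kupffer cells, 0 in endothelial cells and 1 in dendritic cells. Macro-metastatic against pre-metastatic counts were 2 in neutrophils, 1 in monocytes and macrophages, 1 in Kupffer cells, 1 in endothelial cells and 0 in dendritic cells, and pre-metastatic against control counts were 1 in Kupffer cells and 0 in endothelial cells. With no filter on low counts, the macro-metastatic against control counts were 4 in neutrophils, 6 in monocytes and macrophages, 8 in Kupffer cells and 7 in dendritic cells. The pre-metastatic against control counts were 1, 2, 7, 8 and 2 in neutrophils, monocytes and macrophages, Kupffer, endothelial and dendritic cells, and the macro-metastatic against pre-metastatic counts were 2 in neutrophils and 5 each in monocytes and macrophages, endothelial and dendritic cells. With DESeq2, pre-metastatic against control counts were 1, 2, 5, 6 and 1 in the same order of classes, and the macro-metastatic against pre-metastatic count in neutrophils was 2. With clusters named by markers, macro-metastatic against control counts were 5 in neutrophils, 8 in Kupffer cells and 5 in dendritic cells, those against pre-metastatic livers were 0 in neutrophils and 7 in Kupffer cells, and the pre-metastatic against control count in Kupffer cells was 1. With only the 2 groups compared in the fit, macro-metastatic against pre-metastatic counts were 0 in neutrophils and 0 in endothelial cells, and pre-metastatic against control counts were 1 in Kupffer cells and 5 in endothelial cells. With GC and length correction and no replicate block, macro-metastatic against pre-metastatic counts were 0 in neutrophils and 1 in endothelial cells. The cause of these moves was not tested.

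The labels give same-numbered replicates no shared animal or batch, so they were not treated as pairs. The correlation of their deviations from the group means ran from -0.061 to 0.486 over the 5 classes, with 0.131, 0.14 and 0.486 in neutrophils. With the replicate number as a block, macro-metastatic against control neutrophils had 4 members called, macro-metastatic against pre-metastatic neutrophils 3, and macro-metastatic against pre-metastatic monocytes and macrophages 5. With the block and the GC and length correction together, the neutrophil counts were 4 against control and 2 against pre-metastatic livers, and 1 in pre-metastatic against control livers.

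Leaving out each library in turn gave 0 to 4 members called in macro-metastatic against control neutrophils, 2 to 6 in monocytes and macrophages, 4 to 8 in Kupffer cells and 4 to 7 in endothelial cells. In pre-metastatic against control livers the ranges were 0 to 3 in monocytes and macrophages, 0 to 2 in Kupffer cells, 0 to 5 in endothelial cells and 0 to 1 in dendritic cells. In macro-metastatic against pre-metastatic livers they were 0 to 1 in neutrophils, 1 to 4 in monocytes and macrophages, 0 to 2 in endothelial cells and 0 to 3 in dendritic cells. Such a fit takes the spread of the lone library's group from the other groups. Control libraries held 51 and 71 monocytes and macrophages, 81 and 120 dendritic cells and 101 and 210 neutrophils, numbers that limit the precision of each comparison with control in these classes.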
